A study of Mus musculus with 9 samples.

Results

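The 40 genes described here serve protein entry, folding, quality control and stress signalling in the endoplasmic reticulum (ER). They were taken by gene symbol from a list of ER chaperones, protein disulfide isomerases, translocation machinery, degradation factors and unfolded protein response regulators. All 40 of the listed genes reached a mean of at least 10 normalized counts over the 9 libraries, out of 19944 genes in the deposited table and 15238 genes that passed the same minimum and were tested.

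The ER is where a cell makes its secreted and membrane proteins, and hepatocytes secrete most plasma proteins. Nascent chains enter through the Sec61 channel, lose their signal peptide to signal peptidase, and are folded by chaperones and disulfide isomerases, while misfolded chains are sent back to the cytosol for ER-associated degradation (ERAD). When unfolded proteins accumulate, the sensors IRE1 (Ern1), PERK (Eif2ak3) and ATF6 start the unfolded protein response. IRE1 splices Xbp1 mRNA, PERK slows translation and favours ATF4, and ATF6 is cleaved into a transcription factor. XBP1 and ATF6 raise chaperone and ERAD genes, many of them through the ER stress response element (ERSE), and ATF4 raises Ddit3 and Trib3.

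The study asked what the Tudor domain of SND1, a fold that binds methylated arginine, contributes to liver transcription. RNA came from whole livers of male mice aged 60 days, kept on ordinary chow under a 12-hour light cycle, and the sample titles name the FVB strain. The 3 genotypes were wild type (WT), Snd1-null (KO, for knockout) and Tudor-mutant knock-in (KI), each with 3 libraries named WT_1 to KI_3 by the number in the title. The labels do not give the allele design, the Cre or promoter if any, or whether littermates were used. The p-values set a difference between groups against the spread between these libraries. They cannot separate genotype from unlisted differences such as litter. A cell type label reads hepatocyte, but the tissue is liver, and in such bulk RNA fewer cells of a type and less RNA per cell cannot be told apart.

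Recovered depth was 59678412 to 66384374 reads per library. As a check of the genotypes, mean Snd1 was 7303 ± 1014 normalized counts in WT, 6303 ± 1423 in KI and 334 ± 96.2 in KO (SD, n = 3). All 12 hepatocyte markers were above 0 in every library and held 6.45 to 14.6% of the reads. The share was highest in KO_2. The markers Fga and Fgb are also counted among the acute phase genes below, so this share does not measure hepatocyte content alone. Markers of the pancreatic acinar cell, a secretory cell rich in ER, held 1.27% of the reads in WT_3, 0.524% in KI_1 and 6.06% in KI_3, and all 19 were above 0 in those 3 libraries. In the other 6 libraries they held 0.00212 to 0.00526%, with 4 to 12 markers above 0. Pdia2, the disulfide isomerase typical of pancreas, was at 0 in each of those 6. Acute phase genes, which encode plasma proteins secreted during inflammation, held 1.70 to 1.83% of the reads in WT, 7.48% in KO_1, 19.4% in KO_2, 20.4% in KO_3 and 1.35 to 1.995% in KI.

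Together the 40 genes took 0.792 to 1.26% of the reads of a library. Levels of different genes are compared here as normalized counts per kilobase of exon. On that scale the WT mean was highest for P4hb, the disulfide isomerase PDI, at 24040 per kilobase. The HSP90 family chaperone Hsp90b1 followed at 17022, the HSP70 family chaperone Hspa5 (BiP) at 15224 and the lectin chaperone Calr (calreticulin) at 13757. P4hb was above Hsp90b1 in all 3 WT libraries, by 5320 to 10148 per kilobase, and Hsp90b1 above Hspa5 in all 3, by 1580 to 2067. Hspa5 was above Calr in 2 of the 3, so that order was not the same in every library. Among stress regulators levels ran from 3736 per kilobase for Xbp1 and 1320 for Atf4 down to 151 for Eif2ak3, 95.8 for Trib3 and 91.8 for Ddit3. The signal peptidase subunit Sec11c was also low at 119 per kilobase.

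Promoter sequences from RefSeq (assembly GRCm38.p6), covering 250 bases before to 50 bases after each annotated start, were found for 32 of the 40 genes. The ERSE, searched on both strands as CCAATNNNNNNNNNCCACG, was present in 9 of the 32 genes (28.1%), against 0.137% of all 27025 genes in the table. The 40 genes were listed for their roles in the ER and its stress response, so this share describes the list and tests nothing. The 9 promoters were picked by the match itself. Their sites are shown with the CCAAT and CCACG ends in capitals, read 5′ to 3′ along the strand that carries the element.
Hspa5: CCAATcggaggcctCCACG
Hsp90b1 distal: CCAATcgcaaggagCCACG
Hsp90b1 proximal: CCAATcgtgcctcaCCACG
Calr: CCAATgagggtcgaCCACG
Canx: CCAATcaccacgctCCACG
Creld2: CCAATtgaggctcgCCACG
Dnajc3: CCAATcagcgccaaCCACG
Pdia6: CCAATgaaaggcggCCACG
Syvn1: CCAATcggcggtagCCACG
Derl3: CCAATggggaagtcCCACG
The sites lay between -212 and -26 relative to the start, counted as 1, and Hsp90b1 held 2 of them. The shorter ERSE-II, searched as ATTGGNCCACG, was found in Herpud1 (-52 to -42) and Dnajb11 (8 to 18), 6.25% of the genes against 0.0444% of all genes. The amino acid response element core TTGCATCA, a letter pattern associated with ATF4, was found in Herpud1 only (3.12% against 1.03% of all genes). The XBP1-type pattern TGACGTGG was found in none of the 32, against 0.714% of all genes. A bare CCAAT, which every ERSE also contains, occurred in 25 of the 32 (78.1%) against 41.1% of all genes. A match is a run of letters and was not tested for binding.

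**Figure D1:**
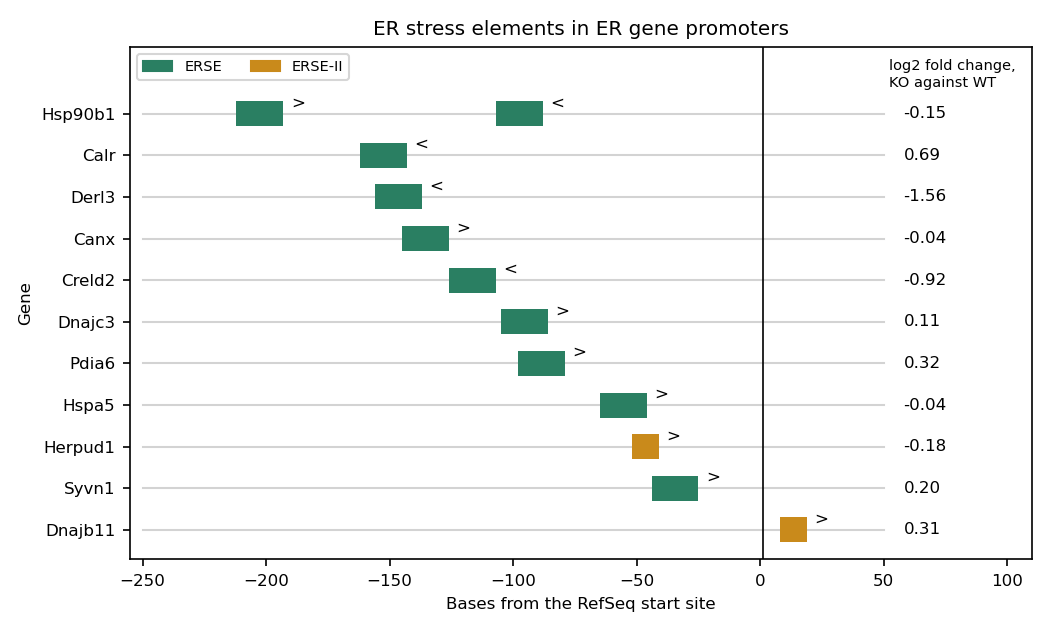
Position of each ERSE (green) and ERSE-II (orange) match in the 300-base promoter window of 11 ER genes, in bases from the RefSeq start site, with > or < for the strand. The column at the right gives the log2 fold change of KO against WT, which runs from -1.56 (Derl3) to 0.69 (Calr) among genes that carry the element.

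Snd1 loss was examined by comparing KO with WT. KO livers had more mRNA of 2 genes of the ER entry channel, 1 chaperone and 1 stress sensor. Sec61a1, the channel-forming subunit of the Sec61 translocon, rose 1.58-fold, its small subunit Sec61b 1.57-fold, the chaperone Calr 1.61-fold and the PERK kinase gene Eif2ak3 1.85-fold. The classical ER stress chaperones Hspa5 and Hsp90b1 were not called, with fold changes of 1.03 and 1.11 in the direction of lower values in KO. Thus 4 of the 40 genes (10%) were called higher at a limma adjusted p under 0.05, beside 4.63% of all genes tested. None of the 40 was called lower by limma, edgeR or DESeq2, beside 4.2% of all genes in limma. At an unadjusted limma p under 0.05, 11 were higher and 3 lower, together 35% of the 40 beside 25% of all genes. Here and below, called refers to limma unless another tool is named; DESeq2 called 8 higher, adding Dnajb9, P4hb, Spcs2 and Ssr1, beside 7.93% of all genes. The median log2 fold change of the 40 was 0.31, with 31 positive and 9 negative, against 0.00083 over all genes tested.

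These calls depended on single libraries. The count of 4 became 0 without WT_1, 0 without WT_2, 1 without WT_3 (Sec61b), 0 without KO_2, 2 without KO_3, 2 without KI_2 and 2 without KI_3, and 8 without KO_1. Without the 3 libraries that held pancreatic transcripts it was 0, beside 21 of all genes (0.138%), although the log2 fold changes were as large. They were then 0.75 for Calr, 0.71 for Sec61a1, 0.80 for Sec61b and 0.94 for Eif2ak3, with adjusted p of 0.214, 0.173, 0.124 and 0.185. The 4 genes stayed positive in all 22 alternative settings. Every KO value of these genes exceeded every WT value, so leaving libraries out could not have turned the sign. Adding the level of pancreatic transcripts as a covariate left log2 fold changes of 0.61 to 0.92 and adjusted p of 0.0509 to 0.101.

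By separation of the libraries, 10 of the 40 genes had every KO library above every WT library (25%), beside 15% of all genes. They were Calr, Derl1, Edem1, Sec61a1, Sec61b, Ssr1, Ssr2, P4hb, Eif2ak3 and Spcs2. A single gene, Derl2, had every KO library below every WT library, beside 14.2% of all genes.

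The translocation machinery comprises the Sec61 channel, the TRAP complex and signal peptidase. All 11 of its genes had positive log2 fold changes in KO, from 0.11 to 0.66, with a median of 0.39. Limma called 2 of them higher (18.2%, beside 4.63% of all genes). Many of the 40 genes ranked the libraries of a genotype alike, so the 11 signs are not independent. Sec61a1 (chromosome 6, 88503579 to 88518905, reverse strand) measured 11083, 11606 and 12432 normalized counts in the WT libraries, 16703, 22904 and 16567 in KO, and 12274, 15454 and 11766 in KI, listed here and below in the order 1, 2, 3. Every KO value lay above every WT and KI value. The log2 fold change of KO against WT was 0.66 ± 0.16 (SE, limma adjusted p = 0.0318). Sec61b (chromosome 4, 47474658 to 47483242, forward strand) measured 1774, 1831 and 2454 in WT, 2705, 3794 and 2997 in KO, and 1933, 2341 and 2415 in KI. Its groups KO and WT were separate, with WT_3 the highest WT library (log2 fold change 0.65 ± 0.17, limma adjusted p = 0.04). The third channel subunit, Sec61g, overlapped between groups, with means of 2491 ± 527 in WT and 3346 ± 1069 in KO (SD, n = 3) and a limma adjusted p of 0.353.

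Limma called none of the 4 subunits of TRAP, a complex that helps some chains enter the channel, while DESeq2 called Ssr1. That gene also had the smallest limma p of the 4, with 6779, 7478 and 8529 normalized counts in WT, 10734, 13097 and 9470 in KO, and 6863, 9179 and 7309 in KI. All KO values exceeded all others, and the log2 fold change was 0.54 ± 0.16 (SE, limma adjusted p = 0.0626). Ssr4 overlapped between WT and KO, at 5351, 4546 and 5289 in WT, 4617, 7071 and 6407 in KO, and 3926, 4634 and 5238 in KI. Ssr2 and Ssr3 had log2 fold changes of 0.41 and 0.37 in KO, with limma adjusted p of 0.118 and 0.29.

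Signal peptidase removes the signal peptide as a chain emerges into the ER. Its subunit Spcs2 measured 5165, 4384 and 5495 in WT, 5749, 7690 and 7791 in KO, and 4286, 5684 and 4878 in KI. KO_1 was only just above the highest WT library, and the log2 fold change of 0.49 ± 0.16 was not called (limma adjusted p = 0.0824). Spcs1, Spcs3 and the catalytic subunit Sec11c had log2 fold changes of 0.11, 0.34 and 0.30, with overlapping libraries.

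The 11 chaperones and co-chaperones did not share a direction in KO, with 5 positive and 6 negative values and a median log2 fold change of -0.04. Calr (chromosome 8, 84841850 to 84846934, reverse strand) measured 38715, 36992 and 43151 normalized counts in WT, 61844, 75740 and 55264 in KO, and 43222, 53358 and 41601 in KI. All 3 KO libraries were above all others, and the log2 fold change against WT was 0.69 ± 0.18 (SE, limma adjusted p = 0.041). Canx (calnexin), the membrane lectin that works beside Calr on glycoproteins, averaged 23555 ± 557 over WT and 23013 ± 2356 over KO (log2 fold change -0.04, limma adjusted p = 0.893). Hspa5, the main ER HSP70 and a standard reporter of ER stress, measured 63675, 47402 and 82075 in WT, 49491, 73595 and 62075 in KO, and 69406, 89947 and 89746 in KI. KO values lay inside the WT range, and the limma adjusted p was 0.937. Hsp90b1 measured 67751, 53526 and 84622 in WT, 47780, 79171 and 59461 in KO, and 74664, 76313 and 65451 in KI, again with KO and WT overlapping (limma adjusted p = 0.752).

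Both extremes of the chaperone group were cofactors. Creld2, which encodes an ER-stress-responsive secretory pathway protein, measured 6119, 4133 and 9318 in WT, 1566, 5153 and 4309 in KO, and 8706, 8732 and 7515 in KI. KO_1 was the lowest library and WT_3 the highest. The log2 fold change of -0.92 ± 0.41 was not called (limma adjusted p = 0.195) and was -0.39 without KO_1 (limma adjusted p = 0.389). Dnajb9, a J-domain partner of Hspa5 and an IRE1 and XBP1 target, ranged from 1878 to 3641 in WT and from 3556 to 6009 in KO. Its libraries overlapped only between KO_1 and WT_3, and the log2 fold change of 0.92 ± 0.33 was not called (limma adjusted p = 0.115). The nucleotide exchange factor Hyou1 measured 15453, 13612 and 19763 in WT, 11662, 17688 and 13712 in KO, and 17792, 24480 and 21821 in KI, a log2 fold change of -0.19 in KO (limma adjusted p = 0.617). The J-domain genes Dnajb11 and Dnajc3, the cofactor Sdf2l1 and the secreted protein Manf had log2 fold changes of 0.31, 0.11, 0.18 and -0.15.

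All 4 protein disulfide isomerases, which form and reshuffle disulfide bonds, had positive log2 fold changes in KO, with a median of 0.32. P4hb was the furthest, with 64054 to 75266 normalized counts in WT and 87675 to 141677 in KO. Its groups were separate, but the KO spread was wide and the log2 fold change of 0.61 ± 0.23 was not called (limma adjusted p = 0.133). Pdia3, Pdia4 and Pdia6 had log2 fold changes of 0.24, 0.32 and 0.32 with overlapping libraries.

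**Figure D2:**
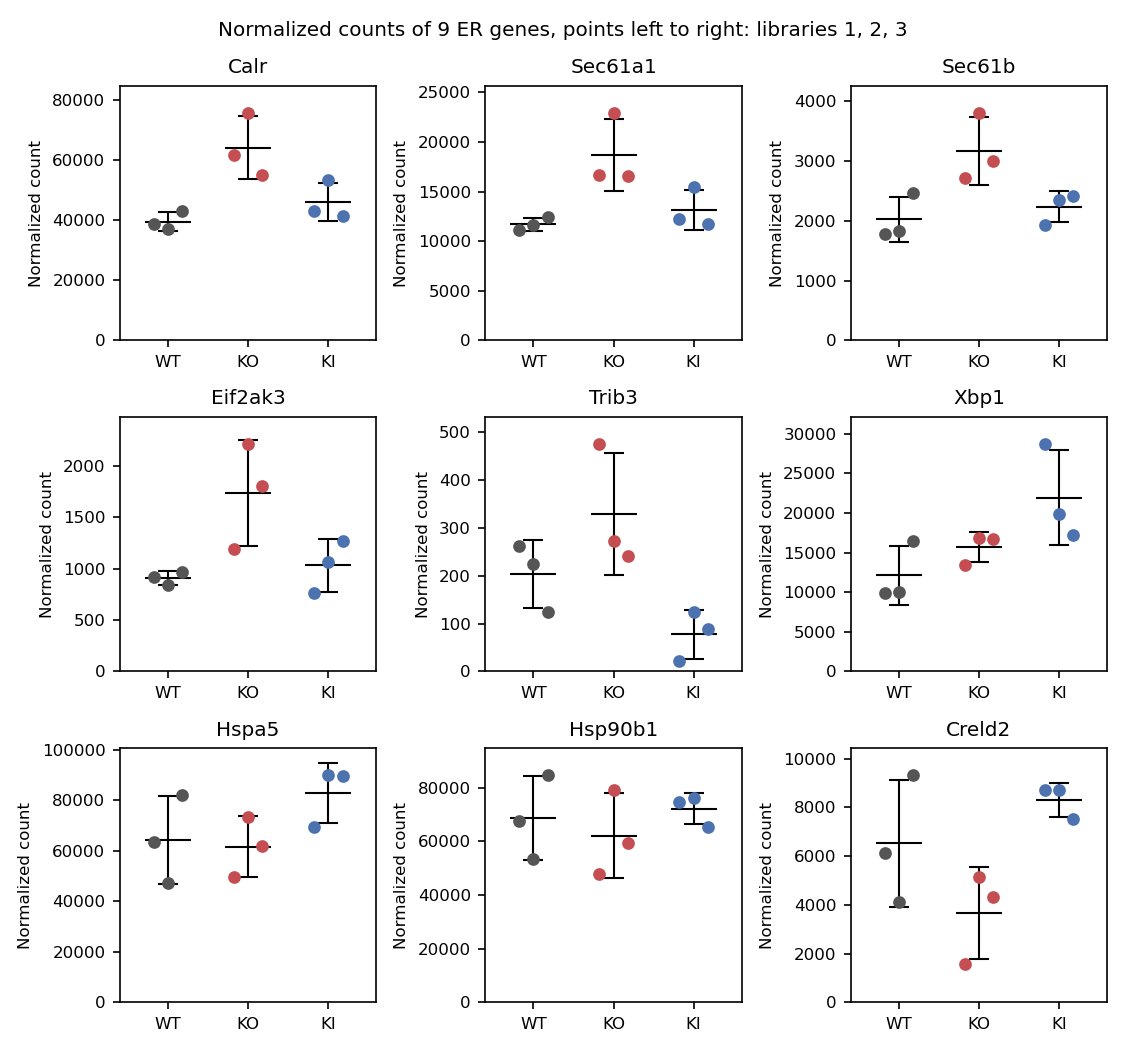
Normalized counts of 9 ER genes in every library, with points in the order 1, 2, 3, horizontal bars for group means and whiskers for the SD (n = 3). Calr, Sec61a1, Sec61b and Eif2ak3 have all KO points above all WT points, Hspa5 and Hsp90b1 do not, and Trib3 has all KI points below the rest.

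Over the 7 ERAD genes the KO median was 0.02 on the log2 scale, and none was called. The derlins, membrane proteins of the retrotranslocation step, differed among themselves. Derl2 measured 4703, 4124 and 5648 in WT, 4060, 3415 and 3076 in KO, and 3681, 4712 and 4157 in KI. The highest KO value lay just under the lowest WT value (log2 fold change -0.45 ± 0.15, limma adjusted p = 0.0959), and without KO_1 Derl2 was called lower (limma adjusted p = 0.0336). Derl1 had separate groups in the opposite direction, with means of 7016 ± 392 in WT and 8837 ± 682 in KO (log2 fold change 0.33, limma adjusted p = 0.138). Derl3 measured 594, 394 and 1224 in WT, 76.1, 534 and 271 in KO, and 1268, 586 and 846 in KI. Its 3 highest values were in WT_3, KI_1 and KI_3, the libraries with pancreatic transcripts. The log2 fold change of KO against WT was -1.56 ± 0.64 (limma adjusted p = 0.159) and -1.11 without those 3 libraries (limma adjusted p = 0.505). It was -0.79 without KO_1 and -2.19 without KO_2 (limma adjusted p = 0.318 and 0.087).

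Syvn1, the ubiquitin ligase HRD1, measured 4339, 3426 and 6171 in WT, 5031, 5823 and 4722 in KO, and 4864, 8016 and 7266 in KI. Its KO values lay within the WT range (log2 fold change 0.20). Edem1, which helps recognise misfolded glycoproteins, had separate groups and a log2 fold change of 0.34 (limma adjusted p = 0.178). Sel1l, the partner of Syvn1, and the stress-induced Herpud1 had log2 fold changes of 0.02 and -0.18, both with overlap.

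Sensors and transcription factors were all on the positive side in KO, with 7 positive genes and a median of 0.39 (log2). Limma called 1 of them higher (14.3%, beside 4.63% of all genes). Eif2ak3 (chromosome 6, 70844515 to 70905245, forward strand) measured 919, 837 and 971 normalized counts in WT, 1192, 2210 and 1807 in KO, and 763, 1061 and 1272 in KI. KO and WT were separate, with KO_1 well under the other KO libraries (log2 fold change 0.89 ± 0.23, SE, limma adjusted p = 0.0432). Ern1 and Atf6, the other sensors, had log2 fold changes of 0.39 and 0.04 and were not called. Atf4 measured 3018, 2883 and 3440 in WT, 3301, 4024 and 4600 in KO, and 3027, 3759 and 4695 in KI, with KO_1 below WT_3. Ddit3 (CHOP), the gene linked to death under lasting stress, measured 187, 94.4 and 190 in WT, 143, 146 and 206 in KO, and 133, 241 and 322 in KI. WT and KO overlapped for both, with log2 fold changes of 0.34 and 0.12 (limma adjusted p = 0.253 and 0.88). The table gives 1 value per gene, so spliced and unspliced Xbp1 were not separated.

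Upstream sequences are printed for 4 genes that contrast in KO, as 250 bases ending at the base before the start, on the strand of the gene, in assembly GRCm38.p6 from RefSeq. Calr and Hspa5 both carry an ERSE, in capitals, but only Calr was called; the Calr element lies on the opposite strand, so its letters read from the CCACG end.
Calr, chr8:84846932-84847181, reverse strand: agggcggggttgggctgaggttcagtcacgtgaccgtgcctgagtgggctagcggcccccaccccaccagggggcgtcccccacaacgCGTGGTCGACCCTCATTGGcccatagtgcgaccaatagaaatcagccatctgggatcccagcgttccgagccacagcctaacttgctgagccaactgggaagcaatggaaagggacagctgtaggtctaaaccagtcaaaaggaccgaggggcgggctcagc
Hspa5, chr2:34771840-34772089, forward strand: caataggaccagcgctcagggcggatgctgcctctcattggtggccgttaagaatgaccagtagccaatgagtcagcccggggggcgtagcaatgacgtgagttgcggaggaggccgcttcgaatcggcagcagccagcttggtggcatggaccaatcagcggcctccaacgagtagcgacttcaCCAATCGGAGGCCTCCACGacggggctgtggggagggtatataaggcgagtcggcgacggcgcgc
Eif2ak3 and Sec61b were called without an ERSE in the window. In Eif2ak3 the capitals mark CCAAT on either strand, and Sec61b has none.
Eif2ak3, chr6:70844265-70844514, forward strand: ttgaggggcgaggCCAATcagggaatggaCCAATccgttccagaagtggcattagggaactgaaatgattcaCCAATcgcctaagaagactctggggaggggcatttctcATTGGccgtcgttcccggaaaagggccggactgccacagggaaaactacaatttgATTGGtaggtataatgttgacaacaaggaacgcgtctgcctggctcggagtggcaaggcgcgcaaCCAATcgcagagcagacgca
Sec61b, chr4:47474411-47474660, forward strand: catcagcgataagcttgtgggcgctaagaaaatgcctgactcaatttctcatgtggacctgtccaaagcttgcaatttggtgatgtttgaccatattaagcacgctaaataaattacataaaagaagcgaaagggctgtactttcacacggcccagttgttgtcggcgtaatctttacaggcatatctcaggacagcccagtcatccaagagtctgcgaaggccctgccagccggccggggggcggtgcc
Over the 9 genes with an ERSE, the KO log2 fold changes were 4 positive and 5 negative, with a median of -0.04. Over the 23 genes in the promoter table without an ERSE, 21 were positive and the median was 0.34. This difference between the 2 groups of promoters is a description and was not tested. The 23 include Herpud1 and Dnajb11, which carry an ERSE-II. The groups also differ in role, as none of the 9 is a translocation, sensor or transcription factor gene. Chaperones, disulfide isomerases and ERAD genes include promoters with and without an ERSE. Promoter and role can therefore be told apart only in part, and no comparison within a role was made. Sec61a1, which was called, is in neither group because no promoter sequence was found for it.

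**Figure D3:**
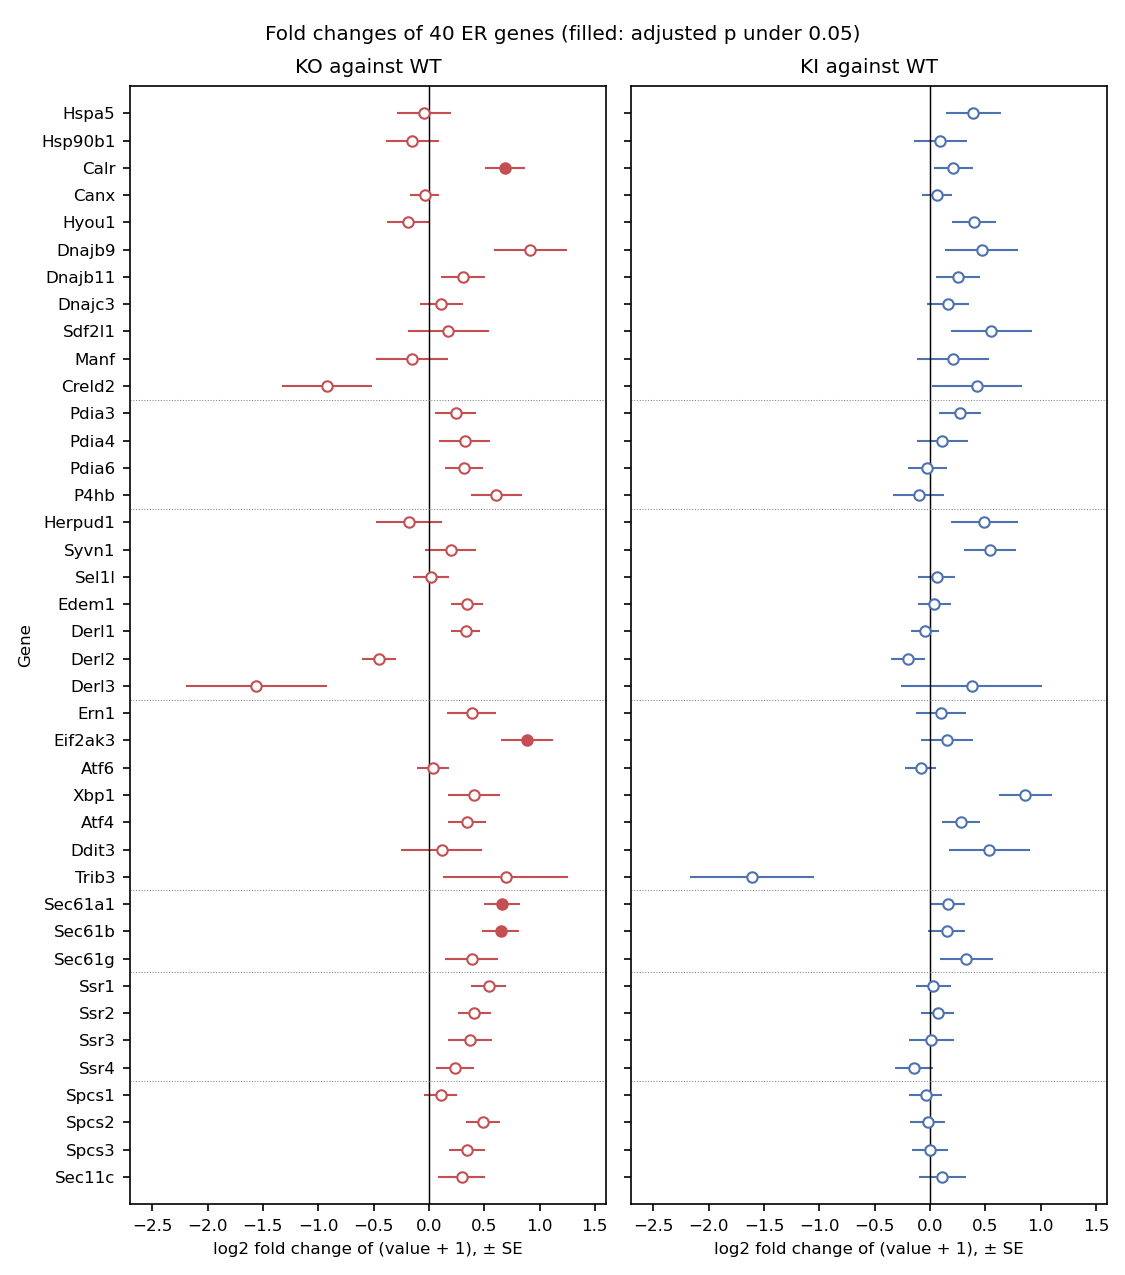
Log2 fold change of (value + 1) with its SE for the 40 ER genes, KO against WT at the left and KI against WT at the right, with dotted lines between role groups and filled points for a limma adjusted p under 0.05. In KO 4 points are filled, and the Sec61, TRAP and signal peptidase genes at the bottom are all right of 0; in KI none is filled.

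The Tudor domain mutation was examined by comparing KI with WT, which uses the same 3 WT libraries as the KO comparison. None of the 40 genes was called in either direction by limma. The gene with the smallest p was Xbp1, higher in KI, and the largest difference was in Trib3, lower in KI. The background was close to 0, at 0.00656% of all genes called higher and 0.0197% called lower. At an unadjusted limma p under 0.05 there were 2 of the 40 genes higher (Xbp1 and Syvn1) and 1 lower (Trib3). Together these were 7.5% of the 40, below the 11.6% of all genes tested. edgeR also called none, and DESeq2 called Xbp1 (DESeq2 adjusted p = 0.032). By separation of libraries 2 genes were higher (Herpud1 and Xbp1), beside 9.47% of all genes, and 1 was lower (Trib3), beside 10.2%. The median log2 fold change of the 40 was 0.13, against 0.0045 over all genes. In KI 31 were positive and 9 negative, the same counts as in KO against the same WT libraries.

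Xbp1 measured 9880, 10084 and 16438 normalized counts in WT, 13481, 16900 and 16778 in KO, and 28681, 19935 and 17212 in KI. KI_1 stood highest, and the lowest KI library was only a little above WT_3. The log2 fold change of KI against WT was 0.86 ± 0.24 (SE, limma adjusted p = 0.213). It was 0.998 without the 3 libraries with pancreatic transcripts, which left KI_2 as the lone KI library, assumed to vary like the others (limma adjusted p = 1). In KO the log2 fold change of Xbp1 was 0.41 (limma adjusted p = 0.32).

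Trib3, a pseudokinase gene downstream of ATF4, measured 262, 224 and 125 in WT, 475, 271 and 242 in KO, and 22.5, 123 and 88.6 in KI. All KI libraries were the lowest of the 9, with KI_2 just under WT_3. The log2 fold change of KI against WT was -1.61 ± 0.56 (limma adjusted p = 0.301) and -0.89 without KI_1 (limma adjusted p = 0.667), and that of KO against WT was 0.69 ± 0.56 (limma adjusted p = 0.494). Atf4 and Ddit3, of the same branch, had KI log2 fold changes of 0.28 and 0.54, neither called (limma adjusted p = 0.574 and 0.615).

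All 11 chaperones had positive log2 fold changes in KI, from 0.06 to 0.55 with a median of 0.25, and none was called. Those of Hspa5 and Hyou1 were 0.39 ± 0.25 and 0.40 ± 0.20 (limma adjusted p = 0.579 and 0.48). Their KI and WT libraries overlapped through WT_3, the highest WT library for both genes. Syvn1 had a KI log2 fold change of 0.54 ± 0.23 (limma adjusted p = 0.407), with KI_1 below WT_3. Herpud1, in which WT_3 was the lowest WT library, averaged 18210 ± 5281 across WT and 24818 ± 2102 across KI (limma adjusted p = 0.573). The translocation machinery had a median of 0.03 in KI, from -0.14 (Ssr4) to 0.33 (Sec61g), with 8 genes positive and 3 negative. Derl2 had a KI log2 fold change of -0.20, which became 0.10 without the 3 libraries with pancreatic transcripts.

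KI was also compared with KO directly, which tests the difference between the mutants. Trib3 was 4.93-fold lower in KI than in KO, and it was the only one of the 40 genes that limma or edgeR called lower, beside 4.85% of all genes in limma. DESeq2 called 7 lower (Calr, Eif2ak3, P4hb, Sec61a1, Spcs2, Ssr1 and Trib3), beside 8.38% of all genes. No gene of the 40 was called higher by limma or edgeR, beside 3.6% of all genes in limma. DESeq2 called 2 higher (Creld2 and Hyou1), beside 6.63% of all genes. At an unadjusted limma p under 0.05, 3 were higher and 11 lower, together 35% of the 40 beside 24.9% of all genes. For Trib3 the log2 fold change was -2.30 ± 0.56 (SE, limma adjusted p = 0.0343). It was -1.58 without KI_1 (limma adjusted p = 0.0627) and -1.35 without the 3 libraries with pancreatic transcripts (limma adjusted p = 0.396). The call was lost without WT_1, WT_2, KO_1, KO_2, KO_3, KI_1 or KI_3, while the number of the 40 genes called lower was 7 without KO_1, 3 without KI_2, 1 without WT_3 and 0 without each of the others. Herpud1 was called higher without KO_1.

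By separation, 4 genes had all KI libraries above all KO libraries (Creld2, Hyou1, Derl3 and Xbp1), beside 12.3% of all genes. In the other direction 8 genes were separate (Calr, Derl1, Sec61a1, Sec61b, Ssr1, P4hb, Trib3 and Spcs2), beside 14.1% of all genes. All 11 genes of the translocation machinery had negative log2 fold changes, with a median of -0.36; limma called none of them, and DESeq2 called Sec61a1, Spcs2 and Ssr1. Spcs2, Ssr1 and Sec61a1 were lowest among them at -0.51, -0.51 and -0.50 (limma adjusted p = 0.0721, 0.0769 and 0.0816). These 11 genes were positive in KO against WT, and both comparisons use the same KO libraries. Chaperones had a median of 0.24 with 8 positive and 3 negative. Creld2 was at 1.35 ± 0.41 (limma adjusted p = 0.071), Hyou1 at 0.58 ± 0.20 (limma adjusted p = 0.0987) and the ERAD gene Derl3 at 1.94 ± 0.64 (limma adjusted p = 0.0894). Without the 3 libraries with pancreatic transcripts these were 1.42, 0.79 and 1.39, with 1 KI library left. Without KO_1, Creld2 was at 0.82 and Derl3 at 1.17, and without KO_2 Derl3 was at 2.57.

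Within a genotype, many of the 40 genes ranked the libraries alike. WT_3 was the highest WT library for 35 of the 40 genes (34% of all genes tested), and WT_2 the lowest for 28 (34.3% of all genes). KO_2 was the highest KO library for 31 genes (31.1% of all genes) and KO_1 the lowest for 29 (35.9%). KO_2 was the highest of all 9 libraries for 21 genes, against 16.4% of all genes tested. Within KI, KI_2 was the highest for 25 genes (37.5% of all genes) and KI_1 the lowest for 27 (32.8%).

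**Figure D4:**
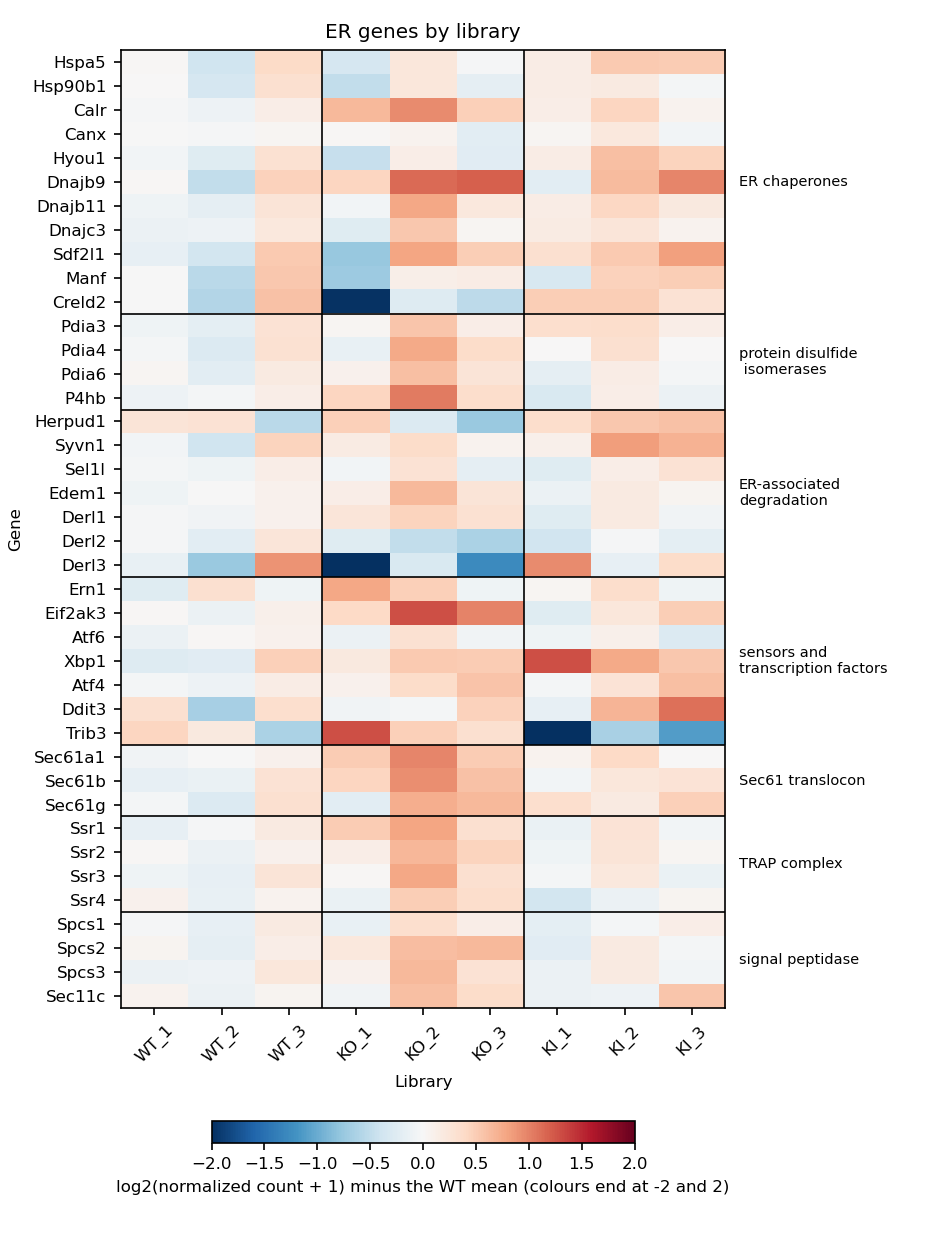
Each gene's log2(normalized count + 1) in each library minus its WT mean, by role group, with red above and blue below and colours ending at -2 and 2. The KO_2 column is red for most genes, the KO_1 column is blue for most chaperones and red for Sec61a1, Sec61b and Trib3, and the Trib3 row is blue in all 3 KI libraries.

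Mean deviations from the WT mean show how the groups parted in KO. For the 11 translocation genes they were -0.04, -0.13 and 0.17 in WT, 0.12, 0.69 and 0.42 in KO, and -0.08, 0.15 and 0.12 in KI. KO_2 and KO_3 were above the other 7 libraries, and KO_1 lay below WT_3. For the 11 chaperones they were -0.04, -0.31 and 0.34 in WT, -0.36, 0.43 and 0.13 in KO, and 0.11, 0.43 and 0.34 in KI. KO_1 was the lowest and KO_2 and KI_2 the highest, so no genotype stood apart. KO_1 also had the lowest share of acute phase reads among the KO libraries, at 7.48%, against 19.4% in KO_2 and 20.4% in KO_3. WT_3, with the highest chaperone level in WT, was the WT library with pancreatic transcripts. Neutrophil and monocyte markers held 0.00161 and 0.00331% of the reads in KO_2 and KO_3 and 0.000196 to 0.000725% in the other 7 libraries, where Elane, Mmp8 or Ngp was at 0 in each, and 1 of 7 tested (Mmp8) was called higher in KO. Kupffer cell and macrophage markers, none of them at 0, held 0.047, 0.0418 and 0.0966% in KO against 0.0294 to 0.0541% in WT and KI. Only KO_3 lay above that range. Of the 13, 3 were called higher in KO than WT (Marco, Cd163 and Mpeg1), 23.1% beside 4.63% of all genes. Log2 fold changes were positive for 9 and negative for 4, from -0.53 to 1.75 with a median of 0.23. Plasma cell markers held 0.0202 to 0.0231% in KO against 0.0149 to 0.0168% in WT and 0.0137 to 0.0200% in KI. That share mostly follows Sdc1, which averaged 10475 normalized counts over the 9 libraries, while the next highest marker, Igkc, averaged 239. It is therefore not a measure of plasma cells. Mzb1 was at 0 in WT_1, KO_1, KO_2 and KI_3, and limma called 0 of 6 markers (1 at an unadjusted p under 0.05). The part of any marker list in these levels was not tested beyond the values without the 3 libraries given above.

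**Figure D5:**
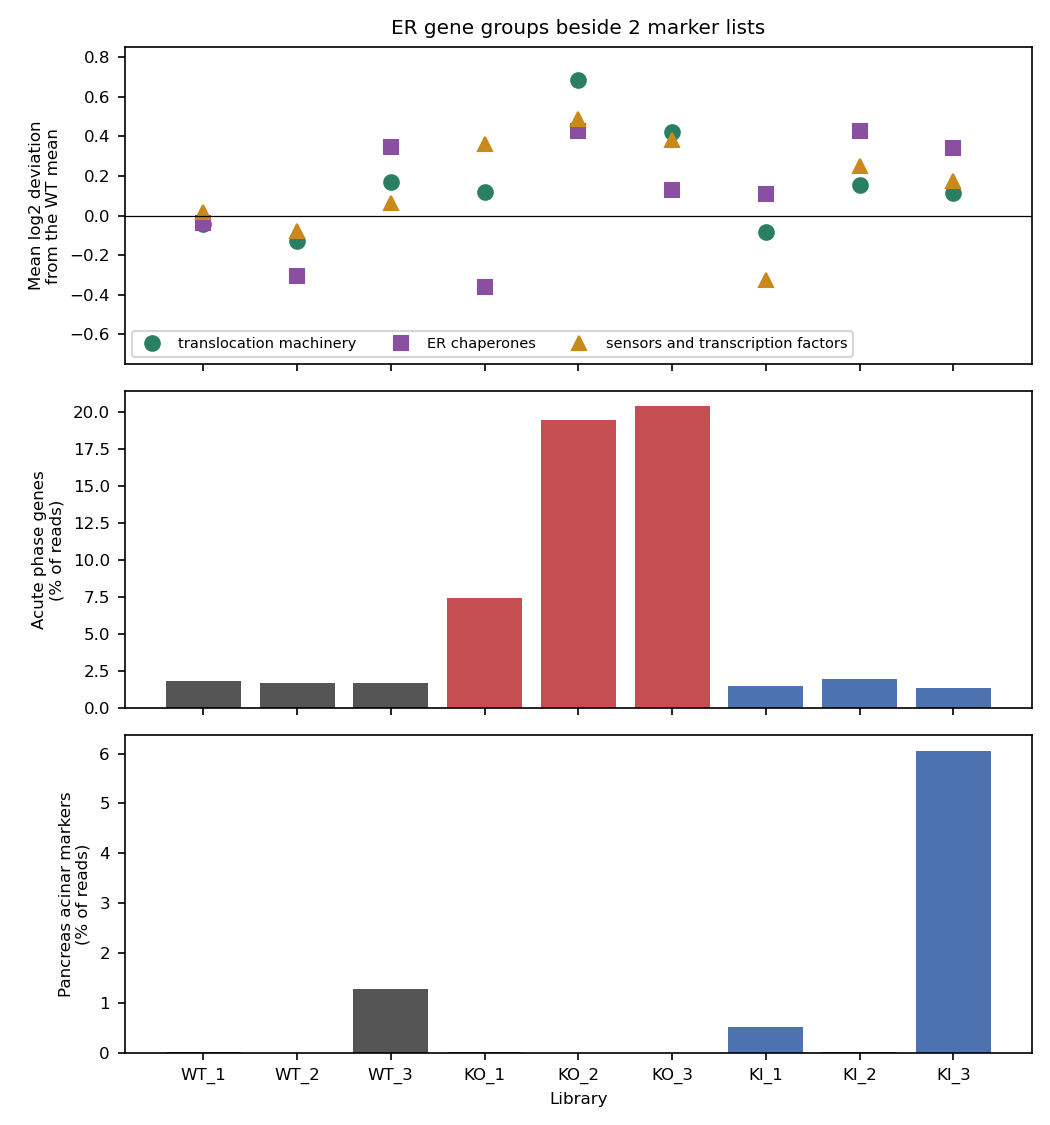
Top, mean log2 deviation from the WT mean for 11 translocation genes, 11 chaperones and 7 sensors and transcription factors in each library; middle and bottom, share of reads in acute phase genes and in pancreas acinar markers, in percent. Translocation genes are highest in KO_2 and KO_3, where acute phase genes hold 19.4 and 20.4% of the reads, and pancreas markers stand out in WT_3, KI_1 and KI_3.

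The wider pathway was read from 5 further lists with 111 genes tested. Of these, limma called 12 higher (10.8%) and 2 lower (1.8%) in KO than in WT, beside 4.63% and 4.2% of all genes, with a median log2 fold change of 0.19. The calls higher became 27 without KO_1, 3 without WT_1, 4 without WT_2, 5 without WT_3, 3 without KO_2 and 6 without KO_3, and 1 without the 3 libraries with pancreatic transcripts; the 2 calls lower became 0 without WT_1, WT_3, KO_3 or those 3 libraries, 1 without WT_2, KO_2 or KI_3, and 3 without KO_1. The list with the most calls was ER folding and glycosylation, with 6 of 31 genes called higher (19.4%, beside 4.63% of all genes), 26 positive and a median of 0.42. Prkcsh, the beta subunit of glucosidase II that trims glycans for Calr and Canx, rose from 4298 to 10038 normalized counts on average (log2 fold change 1.21, limma adjusted p = 0.00234). Alg2, an early enzyme of the glycan precursor, rose from 624 to 1497 (1.26, limma adjusted p = 0.00919), and the ER thioredoxin-like gene Txndc11 rose by 0.60 (limma adjusted p = 0.0134). Dnajc10, an ER disulfide reductase, rose by 0.94 on the log2 scale (limma adjusted p = 0.0291).

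Of 25 integrated stress response targets 4 were called higher in KO (16%, beside 4.63% of all genes). The list was mixed, with 16 positive and 9 negative log2 fold changes, from -1.70 to 3.14, and a median of 0.20. Atf5, an ATF4-related transcription factor, rose from 4509 to 8694 normalized counts (log2 fold change 0.94, limma adjusted p = 0.00425), and Ppp1r15a, which reverses PERK signalling, rose by 0.63 (limma adjusted p = 0.0188). The ERAD and the targeting and translocation lists had 1 call higher each, of 20 and 14 genes (5% and 7.14%, beside 4.63% of all genes). The 2 calls in the lower direction were both ER stress regulators, Nfe2l2 (NRF2) at -0.52 and Crebrf at -0.79 (limma adjusted p = 0.0303 and 0.0403).

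In KI against WT limma and edgeR called 0 of the 111 and DESeq2 called 2 lower, with 15 at an unadjusted p under 0.05 in limma (13.5%, beside 11.6% of all genes) and a median of 0.05. Against KO, 8 of the 111 were called lower in KI and 0 higher by limma (0 by edgeR and 1 by DESeq2), with 31 at an unadjusted p under 0.05 in either direction (27.9%, beside 24.9% of all genes). The 8 (7.21%, beside 4.85% of all genes) became 18 without KO_1, 2 without KO_2, 5 without KO_3, 3 without any 1 WT library, 3 without KI_1, 4 without KI_3 and 0 without the 3 libraries with pancreatic transcripts, and 1 gene was called higher without KO_1. The smallest adjusted p were those of Atf5 (log2 fold change -1.12, limma adjusted p = 0.00207), Prkcsh (-0.97, 0.00745), Alg2 (-0.99, 0.0268) and the Sec61 paralog Sec61a2 (-0.87, 0.0418). Tars, a threonyl-tRNA synthetase gene, and Stt3a, a catalytic subunit of the oligosaccharyltransferase, followed at -0.55 and -0.68 (limma adjusted p = 0.0428 and 0.046).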

How the data were processed

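Liver RNA was sequenced from stranded mRNA libraries, per the labels' protocols. TopHat2, Bowtie2, featureCounts and build GRCm38 are named per the submitters' processing notes; versions, annotation, strand setting and scaling tool are not given in the sources used here, so reads shared by gene copies or overlapping genes carry an unknown uncertainty. The authors deposited 1 table of normalized counts, a scaled signal per gene. In each column the values are whole multiples of 1 step (0.905 to 1.12), so whole read counts were recovered from the deposited signal (at least 99.995% of values within 0.0051 units, 5 not whole in all).

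Values were tested as log2(value + 1) with limma 3.58.1 in R 4.3.3, over 15238 genes with a mean of at least 10, with a variance trend, 1 mean per group and 6 residual degrees of freedom, two-sided, with Benjamini-Hochberg adjustment, and called at an adjusted p under 0.05. Fold changes are on that scale. Count models on the recovered counts, from DESeq2 1.42.0 and edgeR 4.0.16, served as alternatives. Other alternatives were pseudocounts of 0.5 and 10, other filters, TMM scaling, no variance trend, 2 groups only, a replicate block, pancreatic transcripts as a covariate, and libraries left out. Libraries with over 0.1% of reads in pancreas acinar markers were called libraries with pancreatic transcripts. The fit was tested on simulated data. No 2 libraries of a genotype were duplicates; pairs across genotypes were not checked.

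The 40 genes, the gene and marker lists, the role groups and the tests were chosen with earlier results of these data known. Genes are given library by library if called in any comparison, if among the 3 smallest p per comparison and direction, or if Hspa5, Hsp90b1, Xbp1, Atf4, Ddit3 or Sec61a1; other pathway genes are named if called, up to 6 per comparison and direction. Of 205 list symbols 199 were matched. Gene coordinates and exon lengths are from GENCODE M21 (GRCm38), which need not be the annotation the authors used. Promoters come from RefSeq. Python 3.11, numpy 2.4.6, pandas 2.3.3 and matplotlib 3.10.9 were used.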

Additional observations from a re-analysis of the deposited data

How the results depend on the processing

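In KO against WT, 4 genes were called higher, with 8 by DESeq2 and 0 without a variance trend, with only 2 groups, with the pancreas covariate or without the 3 libraries with pancreatic transcripts. Leaving out 1 library gave 0 to 8 calls higher and 0 to 1 lower (Derl2, without KO_1). In KI against WT, DESeq2 called 1 higher against 0. In KI against KO, 1 gene was called lower, with 7 by DESeq2 and 0 without a variance trend, with 2 groups, with the covariate or without the 3 libraries; leaving out 1 library gave 0 to 7 lower and 0 to 1 higher (Herpud1, without KO_1), and DESeq2 called 2 higher. The cause was not tested. With a replicate block by title number 6 genes were called higher in KO than WT and 2 lower in KI than KO; with a replicate block by description number, chosen after seeing the data, these were 3 and 2. Deviations of same-numbered libraries correlated at -0.14 to 0.57 by title. The highest were WT_3 with KI_3 (0.57), both with pancreatic transcripts, and WT_2 with KI_2 (0.53). These libraries share a number in both numberings. The other title pairs lay between -0.14 and 0.20. The main fit did not pair libraries by number, and whether any were paired is unknown. Over 19 gene and comparison pairs and 22 settings, 18 pairs kept their sign. Derl2 in KI minus WT turned to 0.10 without the 3 libraries. Where the libraries of the groups compared do not overlap, leaving libraries out cannot turn the sign. Scaling moved the median of all genes by less than 0.1 on the log2 scale.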
